A study of Mus musculus with 21 samples.

Results

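The genes described here encode the voltage-gated calcium channels, the voltage-gated sodium channels and the HCN channels. They were taken as every gene whose symbol on the array starts with Cacna or Cacnb, or with Scn or Hcn followed directly by a number. That gave 29 genes, read by 72 probe sets, of 18193 genes named by 1 symbol on the array. They comprise 9 genes for the calcium channel pore, 4 for its alpha2delta subunit, 3 for its beta subunit, 8 for the sodium channel pore, 3 for its beta subunits and 2 for HCN channels. A filter on dim probe sets left 23 of the 29 for testing, among 12499 genes tested in all.

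Total RNA of the mouse dentate gyrus was hybridised to 21 Affymetrix arrays, 3 in each of 7 groups. The mice carried a transgene for the Nogo receptor NgR (gene *Rtn4r*) that the transactivator tTA switches on and that doxycycline keeps off. In set 1 the groups were bitransgenic mice (NgR transgene and tTA) whose doxycycline was removed, bitransgenic mice held on a doxycycline diet, and monotransgenic mice on water, which carry the NgR transgene and lack tTA. Experiment 2 set bitransgenic mice on water, never exposed to doxycycline, against monotransgenic mice on water. Set 3 set bitransgenic against monotransgenic mice, with no treatment named in the labels. All 7 groups thus carried the NgR transgene, and the labels name neither the promoter that drives tTA nor the strain, age or sex. No label states whether the 3 arrays of a group stand for 3 animals. The p-values therefore rest on the spread between samples, part of which may be technical.

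Calcium channels open on depolarisation and couple electrical activity to transmitter release, gene expression and firing. Their pore is assembled with a cytoplasmic beta subunit and an extracellular alpha2delta subunit, which brings channels to the membrane and to synapses. Sodium channels carry the upstroke of the action potential, with beta subunits that set their gating and anchoring, and HCN channels pass a mixed cation current on hyperpolarisation that sets resting potential and rhythmic firing. Granule cells of the dentate gyrus fire sparsely, and these channels set when they do so.

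None of the 23 genes tested passed the threshold in any of the 9 comparisons (limma with Benjamini-Hochberg adjustment over 12499 genes, adjusted p under 0.05). The gene nearest to it was *Cacna2d3*, for an alpha2delta subunit, which was 1.33-fold as high with the transgene on over the mean of the 3 sets, at 0.41 ± 0.10 on the log2 scale (SE of the fit) and an adjusted p of 0.0782 in limma. For every one of the 23 genes the 95% interval of that mean difference lay within 1 log2 unit of 0, with bounds from -0.51 to 0.72. Differences are on the log2(value + 16) scale after quantile normalization, which understates changes of dim genes, and intensities are given as deposited. In tissue RNA, fewer cells that express a gene and less RNA per cell cannot be told apart.

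The counts of unadjusted p-values and of groups free of overlap were read against those of all genes. After doxycycline removal against monotransgenic mice, 0 channel genes were called beside 0.0720% of all genes. There 3 had an unadjusted p under 0.05 (*Cacna2d3*, *Cacna1b* and *Cacna1g*) beside 7.86% of all genes, and 6 of 23 had groups of arrays that did not overlap beside 22.2%. Removal against diet gave 0 calls beside 0.0320%, 2 unadjusted (*Cacna2d3* and *Hcn3*) beside 5.04%, and 8 without overlap, 5 higher and 3 lower, beside 16.2%. Diet against monotransgenic mice gave 0 calls beside 0.0240%, 0 unadjusted beside 3.85%, and 2 without overlap (*Cacna2d2* higher, *Cacna2d3* lower) beside 14.9%.

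Experiment 2 gave 0 calls beside 0.0960% of all genes, 4 unadjusted (*Scn2a*, *Cacna2d3*, *Cacna1h* and *Scn3b*) beside 14.4%, and 0 without overlap beside 8.69%. Set 3 gave 0 calls beside 0% of all genes, 0 unadjusted beside 4.19%, and 5 without overlap, 2 higher and 3 lower, beside 13.5%. The mean of the 3 sets gave 0 calls beside 0.0720% and 4 unadjusted (*Cacna2d3*, *Scn4b*, *Hcn2* and *Hcn3*) beside 11.8%. With 3 arrays against 3, no exact permutation p can be under 0.1.

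By direction, 18 of the 23 genes were on the higher side after removal against monotransgenic mice, with a median of 0.116, while 47.7% of all genes were higher with a median of -0.013. Against the diet group 14 were higher, beside 48.1% of all genes, with a median of 0.052. In the diet group against monotransgenic mice 17 were, beside 49.9%, with a median of 0.09. These 3 comparisons share their arrays, so their counts are not separate readings. In experiment 2, 11 were higher and 12 lower (median -0.022), while 52.1% of all genes were higher. Without the 2 arrays of highest actin ratio in experiment 2, 22 genes passed the filter, 9 higher and 13 lower (median -0.09), and *Cacna1e* (-0.04) and *Cacna2d2* (-0.16) turned to the lower side. In set 3, 13 were higher and 10 lower (median 0.047), or 56.5% higher beside 56.7% of all genes. Over the mean of the 3 sets 13 were higher and 10 lower with a median of 0.014, beside 51.6% of all genes higher. With arrays centred on the 75th percentile instead 16 were higher over that mean, with experiment 2 at 13 higher.

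A difference in the same direction in all 3 sets was shown by 9 of the 23 genes, or 39.1%, beside 29.7% of all genes. *Cacna1b*, *Cacna2d3*, *Hcn2*, *Hcn3*, *Scn2b* and *Scn4b* were on the higher side each time, and *Cacna1c*, *Cacna1d* and *Scn1a* on the lower side. For *Cacna1b* and *Scn2b* the experiment 2 value was 0.01 in each case, and for *Scn1a* it was -0.02. With arrays centred on the 75th percentile *Scn1a* turned to 0.01 after removal and 0.08 in experiment 2, and the other 8 kept their direction in each set.

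**Figure D1:**
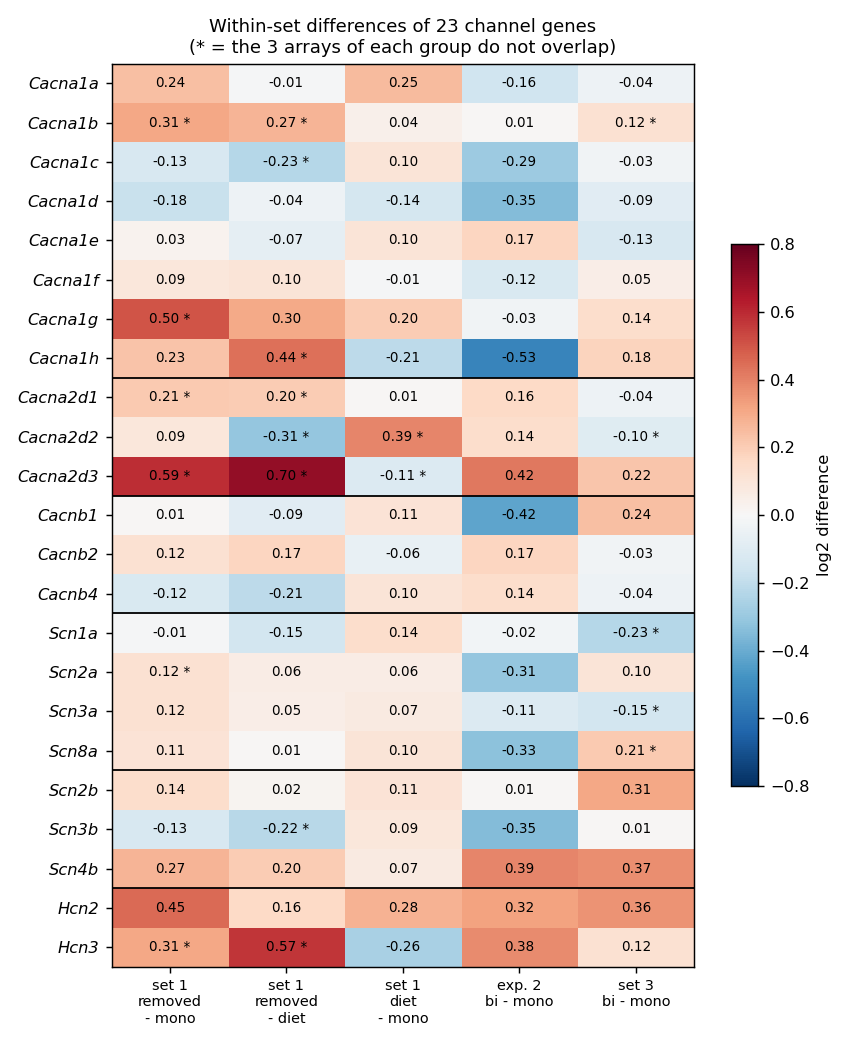
Log2 differences of the 23 channel genes past the filter (rows, grouped by subunit) in the 5 within-set comparisons (columns); colour runs from blue (lower in the first group) to red (higher), and a star marks groups whose 3 arrays do not overlap. *Cacna2d3* holds the highest value, 0.70 after removal against diet, and *Cacna1h* the lowest, -0.53 in experiment 2.

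The transgene and the tissue were checked first. *Rtn4r* read 684 ± 681 (SD, n = 3) after removal against 80.4 ± 17.4 in set 1 monotransgenic mice and 90.4 ± 19.3 on the diet, 574 ± 196 against 141 ± 39 in experiment 2, and 663 ± 96.6 against 110 ± 23.7 in set 3. Granule cell markers were present, with array medians of 652 for *Prox1* and 5469 for *Calb1*. The actin 3' to 5' ratio, a sign of RNA quality, was 4.84 to 6.45 (log2) in experiment 2, 4.63 to 5.12 in set 1 and 4.17 to 4.63 in set 3. The highest were bitransgenic array 2 (6.45) and monotransgenic array 1 (5.97) of experiment 2, and several results of that experiment are also given without this pair. The median SD of a channel gene was 0.28 and 0.31 log2 units in the groups of experiment 2 and 0.11 to 0.16 in the other groups.

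Among the pore-forming calcium channel genes, 8 of 9 were tested, and differences over the 3 sets ran from -0.20 (*Cacna1d*) to 0.20 (*Cacna1g*). *Cacna1b*, for the N-type channel of presynaptic terminals, read 414, 357 and 372 after removal, 350, 306 and 293 on the diet, and 324, 295 and 303 in set 1 monotransgenic mice. On this probe set every removal array was above every array of the other groups of that set. It is the brightest of 3 past the filter (mean intensity 356, the others 334 and 275). The difference was 0.31 ± 0.14 against monotransgenic mice and 0.27 ± 0.14 against the diet group (limma adjusted p = 0.599 and 0.999). In set 3 its bitransgenic arrays read 335, 326 and 314 and the monotransgenic arrays 273, 294 and 326. They overlapped in intensity but not after normalization, and differed by 0.12 ± 0.14. In experiment 2 the means were 432 ± 47.8 and 432 ± 70.7 (SD, n = 3), and all 6 arrays (377 to 514) lay above the 12 arrays of set 1 and set 3 that were monotransgenic, on the diet or bitransgenic in set 3. Levels between sets cannot be told apart from the handling of each set.

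*Cacna1g*, for a T-type channel that opens near resting potential, read 85.6, 59.7 and 65.5 after removal and 39.6, 43.7 and 57.5 in set 1 monotransgenic mice. These groups did not overlap, and the removal arrays were 0.50 ± 0.24 higher (limma adjusted p = 0.631). The diet arrays, at 67, 63.8 and 40.9, reached into both ranges. In set 3 the monotransgenic arrays alone ran from 29.2 to 82.6, and the difference there was 0.14 ± 0.24. Experiment 2 gave -0.03 ± 0.24.

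*Cacna1h*, for another T-type channel, had the largest span of group means among the calcium pore genes, from 420 in experiment 2 bitransgenic mice to 865 in set 3 bitransgenic mice. After removal it read 956, 630 and 712, and on the diet 547, 546 and 552. The 3 removal arrays were above the 3 diet arrays by 0.44 ± 0.22 (limma adjusted p = 0.999), while the monotransgenic arrays, at 679, 551 and 675, overlapped those of the removal group and all but 1 of them lay above the diet group. The diet group stood at -0.21 ± 0.22 against the monotransgenic group.

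In experiment 2 *Cacna1h* read the other way, at 560, 288 and 413 in bitransgenic and 392, 809 and 648 in monotransgenic mice. The difference was -0.53 ± 0.22 (limma adjusted p = 0.281), and the groups overlapped through monotransgenic array 1, one of the pair with the highest actin ratio. Without that array the difference was -0.81 ± 0.20 and passed (limma adjusted p = 0.0293), and without both arrays it was -0.60 ± 0.18 and did not (limma adjusted p = 0.0646). These fits called 658 of 12496 and 517 of 12505 genes in all, beside 12 of 12499 in the main fit. Leaving out monotransgenic array 2 gave a difference of -0.30 for *Cacna1h*. Over its alternatives it ran from -0.81 to -0.30 with adjusted p from 0.0293 to 0.936. The change from set 1 to experiment 2, tested as a difference of differences, was -0.77 ± 0.31 (unadjusted p = 0.023, limma adjusted p = 0.585).

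*Cacna1d*, for an L-type channel that opens at lower voltages, was on the lower side in each set. After removal it read 539, 551 and 634 against 693, 589 and 662 in monotransgenic mice. In experiment 2 it read 582, 394 and 593 against 456, 716 and 830, and in set 3 534, 727 and 680 against 739, 638 and 661. The groups overlapped in all 3 sets. The experiment 2 difference of -0.35 ± 0.19 was -0.42 ± 0.17 without the pair of highest actin ratio and ran from -0.59 to -0.18 as each array was left out. The mean difference was -0.20 ± 0.11 (limma adjusted p = 0.496, unadjusted exact permutation p = 0.0948 over 8000 labelings).

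*Cacna1c*, for the main L-type channel of neurons, is named outside the rule for lowest p because leaving out arrays changed its call. In experiment 2 it read 376, 363 and 310 in bitransgenic mice and 270, 511 and 567 in monotransgenic mice. The low value of 270 was again monotransgenic array 1, and the other 2 monotransgenic arrays lay above all 3 bitransgenic arrays. The difference was -0.29 ± 0.19 with all arrays (limma adjusted p = 0.464), -0.58 ± 0.15 without that array (0.0313) and -0.62 ± 0.15 without both arrays of highest actin ratio (0.0278). In all, 12, 658 and 517 genes were called in these fits. The adjusted p of *Cacna1c* ran from 0.0273 to 0.936 over the alternatives. A second probe set for the gene stood at 0.23 ± 0.18 in the same comparison with all arrays, in the opposite direction. Set 1 and set 3 gave -0.13 ± 0.19 and -0.03 ± 0.19.

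The P/Q-type gene *Cacna1a* had its lowest p in the diet group, where it read 69, 104 and 67.7 against 68.9, 55.4 and 66.8 in monotransgenic mice. The groups overlapped, and the diet arrays stood higher by 0.25 ± 0.19 (limma adjusted p = 1). *Cacna1e*, for the R-type channel, stayed between 2531 and 4217 on the 21 arrays and differed by 0.02 ± 0.07 over the 3 sets, with a 95% interval from -0.12 to 0.17. *Cacna1f*, an L-type gene known from the retina, was dim at 0.693 to 28.8 and differed by 0.00 ± 0.17. *Cacna1s*, the skeletal muscle gene, did not pass the filter and read 0.797 to 12.

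For the alpha2delta subunits 3 of 4 genes were tested. *Cacna2d3* was read by 1 probe set. After doxycycline removal its arrays read 1149, 741 and 932, on the diet 535, 558 and 586, and in set 1 monotransgenic mice 622, 586 and 602. All 3 removal arrays were above the other 6 of the set, and the diet arrays lay at or just below the monotransgenic ones. The removal group was 1.63-fold as high as the diet group, at 0.70 ± 0.17 (95% interval 0.34 to 1.06, limma adjusted p = 0.183), and 1.51-fold as high as the monotransgenic group, at 0.59 ± 0.17 (0.24 to 0.95, adjusted p = 0.235). The diet group differed from the monotransgenic group by -0.11 ± 0.17.

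In experiment 2 *Cacna2d3* read 789, 1139 and 908 in bitransgenic and 812, 697 and 509 in monotransgenic mice. These groups overlapped by the lowest bitransgenic and the highest monotransgenic array, and differed by 0.42 ± 0.17 (limma adjusted p = 0.28). Without the pair of arrays with the highest actin ratio, each the highest of its group for this gene, the difference was 0.43 ± 0.18 (limma adjusted p = 0.162). Without monotransgenic array 3, the lowest of its group, it was 0.23 ± 0.17 (limma adjusted p = 0.62). In set 3 it read 825, 823 and 706 in bitransgenic and 570, 749 and 702 in monotransgenic mice. There too the ranges overlapped, and the difference was 0.22 ± 0.17 (limma adjusted p = 1), or 0.12 ± 0.19 without monotransgenic array 1. The differences between sets were -0.18 ± 0.24 for experiment 2 against set 1 and -0.37 ± 0.24 for set 3 against set 1, with adjusted p of 0.874 and 1 in limma.

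Over the mean of the 3 sets *Cacna2d3* stood 0.41 ± 0.10 higher (95% interval 0.21 to 0.62). Its unadjusted p of 0.000481 placed it at rank 77 of the 12499 genes. An exact permutation within sets gave p = 0.00125 over 8000 labelings. That value is not adjusted for the number of genes, or for the choice of this gene by its low p. The difference was 0.35 to 0.51 in 30 alternatives, and the limma adjusted p ran from 0.00191 to 0.214 and was under 0.05 in 5 of them. It passed with array weights (0.00191), without the pair of arrays of highest actin ratio (0.0268), without experiment 2 (0.0427), without monotransgenic array 1 of experiment 2 (0.0312) and without monotransgenic array 2 of set 3 (0.0264). In these fits, in the same order, 1374, 415, 183, 217 and 316 of all genes were called, beside 9 in the main fit. The highest adjusted p of *Cacna2d3*, 0.214, came without monotransgenic array 1 of set 3. With the arrays of set 1 alone in the fit, removal against monotransgenic mice and against the diet group passed as well (limma adjusted p = 0.0305 and 0.0263). That fit called 330 and 86 of 12507 genes.

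Summed marker levels moved with some of these groups. After removal against monotransgenic mice some sums were lower without overlap, given here with the markers measured of those listed. They were the granule cell (8 of 8, 14324 to 17487 against 18021 to 21114) and CA1 sums (4 of 5, 307 to 397 against 450 to 508). The microglia (5 of 5, 949 to 1126 against 1190 to 1625), endothelial and mural (6 of 6, 311 to 389 against 445 to 451) and meningeal sums (6 of 6, 76.9 to 115 against 729 to 882) were the others. Tested singly, 6 of 8 granule cell, 3 of 4 CA1, 1 of 4 microglia, 4 of 5 endothelial and mural and 3 of 4 meningeal markers were lower. The other 3 microglia markers tested were higher, and that sum was mostly *Csf1r* (array median 1024, the others 49.8 or less). Likewise the CA1 sum was mostly *Wfs1* (291, the others 29.5 or less). The endothelial and mural sum was mostly *Rgs5* (264, the others 65.3 or less). Among the meningeal markers *Ogn* reached 824 on its highest array and the others at most 112, and no measured marker was at 0. Against the diet group the sums of all lists overlapped. Singly, 2 of 8 granule cell markers (2 lower) and 2 of 4 CA1 markers (1 higher, 1 lower) did not overlap, beside 16.2% of all genes. The same held for 1 marker each of the CA3, CA2 and hilar, oligodendrocyte, astrocyte, microglia, and endothelial and mural lists. The part of these markers in the channel differences was not tested. In the diet group against monotransgenic mice the granule cell (15234 to 17059 against 18021 to 21114) and meningeal sums (94.1 to 128 against 729 to 882) did not overlap. Singly, 5 of 8 granule cell and 3 of 4 meningeal markers tested were lower there. In experiment 2 the sums of 4 oligodendrocyte precursor markers (234 to 301 against 358 to 584), of the endothelial and mural markers (261 to 296 against 328 to 516) and of the meningeal markers (115 to 168 against 190 to 624) were lower in every bitransgenic array. Of the markers tested singly there, 4 of 4, 5 of 5 and 2 of 4 were lower in these lists. The other 2 meningeal markers tested were higher, and the median of that list was 0.056. The oligodendrocyte precursor sum was mostly *Olig1* (array median 411, the others 26.5 or less). In set 3 the sum of 9 CA3, CA2 and hilar markers was 890 to 1003 in bitransgenic and 776 to 824 in monotransgenic mice. Singly, 4 of the 7 tested were higher and 3 lower.

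**Figure D2:**
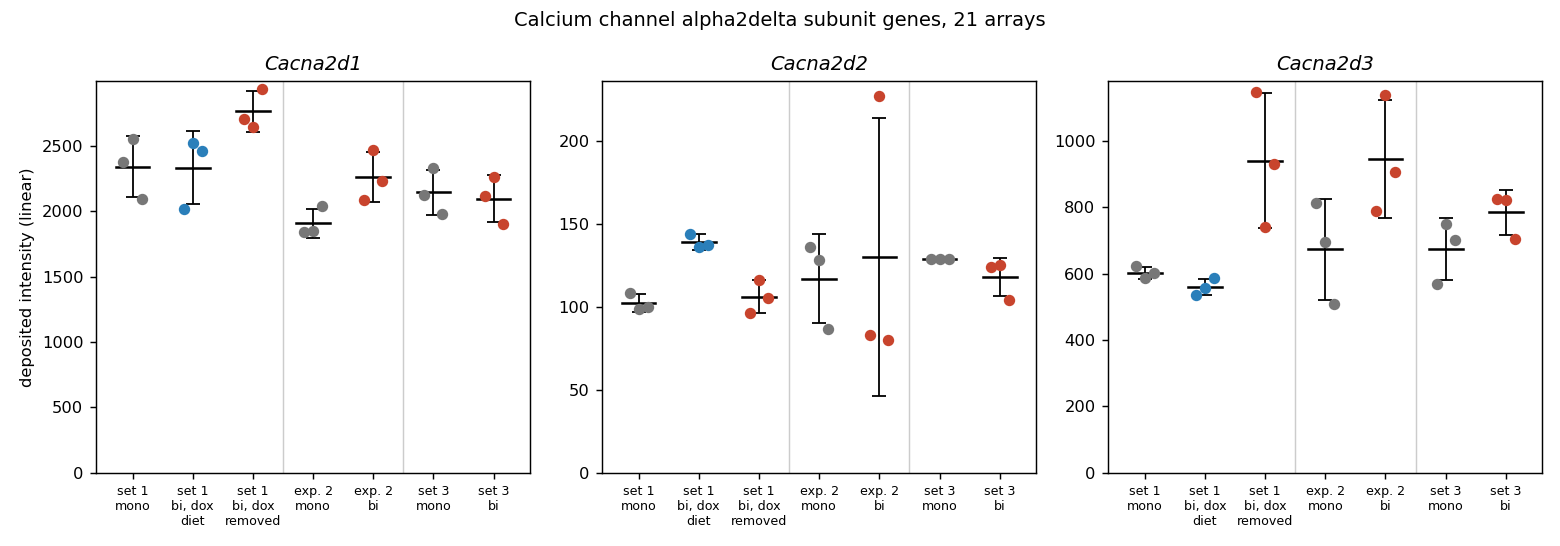
Deposited intensity (linear, from 0) of the 3 alpha2delta genes past the filter on each of the 21 arrays in 7 groups; points are arrays, horizontal bars the mean and vertical bars 1 SD (n = 3), grey for monotransgenic, blue for the doxycycline diet and red for bitransgenic with the transgene on. For *Cacna2d3* the removal arrays (741 to 1149) lie above the diet (535 to 586) and monotransgenic arrays (586 to 622) of set 1.

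*Cacna2d1*, for the alpha2delta subunit that binds gabapentin, read 2709, 2647 and 2940 after removal, 2014, 2526 and 2459 on the diet and 2374, 2556 and 2093 in set 1 monotransgenic mice. The removal arrays were again above the other 6, by 0.20 ± 0.11 and 0.21 ± 0.11 (limma adjusted p = 0.999 and 0.736). Experiment 2 gave 0.16 ± 0.11, or 0.07 ± 0.13 without the pair of highest actin ratio, and set 3 gave -0.04 ± 0.11, and the mean of the 3 sets was 0.11 ± 0.07, with an interval from -0.03 to 0.25. Of its 5 probe sets past the filter, the dimmest stood 0.75 ± 0.21 higher in experiment 2 (limma adjusted p = 0.131 over all probe sets), against 0.16 for the brightest.

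*Cacna2d2*, also a gabapentin-binding subunit, read 144, 136 and 137 on the diet, 96.2, 116 and 105 after removal and 108, 98.6 and 99.6 in set 1 monotransgenic mice. Here the diet group was the one that stood apart, 0.39 ± 0.26 above the monotransgenic group (limma adjusted p = 1), and the removal group stood at -0.31 ± 0.26 against it (0.999). In experiment 2 bitransgenic array 2, the array of highest actin ratio, read 227, and the other 2 read 83.1 and 80. In set 3 the monotransgenic arrays all read 129 and the bitransgenic arrays 124, 125 and 104, a difference of -0.10 ± 0.26. *Cacna2d4* did not pass the filter and read 2.34 to 19.6.

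The beta subunits carry the channel to the membrane and set its inactivation, and 3 of 3 genes were tested. *Cacnb1* had the widest interval of the 23 genes, and its arrays ran from 15 to 141, with both ends in experiment 2. Its bitransgenic arrays there read 60.9, 15 and 44.4 and its monotransgenic arrays 26, 141 and 61.4, with a difference of -0.42 ± 0.38, or -0.53 ± 0.33 without the pair of highest actin ratio. As each array was left out it ran from -0.91 to 0.08. The 2 low readings, 15 and 26, were those of the arrays with the highest actin ratio. Over the 3 sets *Cacnb1* differed by -0.06 ± 0.22.

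*Cacnb2* read 151, 178 and 138 after removal against 150, 147 and 140 in monotransgenic mice, 182, 139 and 179 against 168, 164 and 143 in experiment 2, and 157, 139 and 113 against 155, 128 and 139 in set 3. The ranges overlapped in all 3 sets. Experiment 2 gave 0.17 ± 0.15, or 0.32 ± 0.15 without the pair of highest actin ratio, and the mean difference was 0.08 ± 0.08 (limma adjusted p = 0.739). *Cacnb4*, the beta gene tied to cerebellar function and epilepsy in mice, read 706 to 1326 over all arrays and differed by 0.00 ± 0.08, with an interval from -0.16 to 0.15.

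Of the 8 sodium channel pore genes, the 4 of central neurons were tested. All 4 stood lower in experiment 2, from -0.33 to -0.02, but with arrays centred on the 75th percentile *Scn1a* and *Scn3a* turned to 0.08 each. *Scn2a*, for a channel of axon initial segments, read 2059, 1445 and 2213 in bitransgenic and 2227, 2127 and 2370 in monotransgenic mice of experiment 2. The difference was -0.31 ± 0.12 (limma adjusted p = 0.266). The value of 1445 came from the array of highest actin ratio, and without the pair of highest arrays the difference was -0.14 ± 0.08 (limma adjusted p = 0.335). Other probe sets of the gene stood at -0.01 ± 0.16 and 0.33 ± 0.18 there.

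In set 1 *Scn2a* read 2525, 2424 and 2569 after removal and 2369, 2249 and 2188 in monotransgenic mice, free of overlap at 0.12 ± 0.12. Set 3 gave 0.10 ± 0.12. Experiment 2 differed from set 1 by -0.43 ± 0.18 and from set 3 by -0.41 ± 0.18 (unadjusted p = 0.0245 and 0.0308, limma adjusted p = 0.588 for each). Over the 3 sets the gene stood at -0.03 ± 0.07, or 0.07 with arrays centred on the 75th percentile.

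*Scn8a*, for the channel that sets the firing threshold at the initial segment and nodes, read 2216, 1256 and 2049 in bitransgenic and 1784, 2408 and 2313 in monotransgenic mice of experiment 2. The lowest array of each group was its array of highest actin ratio. The difference was -0.33 ± 0.17 with all arrays and -0.22 ± 0.10 without that pair (limma adjusted p = 0.363 and 0.202), and it was -0.07 without bitransgenic array 2 alone. In set 3 the bitransgenic arrays, at 2041, 1963 and 2358, were all above the monotransgenic ones, at 1795, 1829 and 1819. That difference was 0.21 ± 0.17 (limma adjusted p = 1), and experiment 2 differed from set 3 by -0.54 ± 0.24 (unadjusted p = 0.0334, limma adjusted p = 0.6).

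*Scn1a*, best known for its role in inhibitory interneurons, read 319, 322 and 266 in bitransgenic and 362, 335 and 368 in monotransgenic mice of set 3. *Scn3a*, highest in the embryonic brain, read 625, 622 and 629 against 681, 669 and 720. In both genes every bitransgenic array of set 3 was below every monotransgenic one, by -0.23 ± 0.17 and -0.15 ± 0.12 (limma adjusted p = 1 for each). After removal in set 1 they stood at -0.01 ± 0.17 and 0.12 ± 0.12, and over the 3 sets at -0.09 ± 0.10 and -0.05 ± 0.07. *Scn7a*, of the sodium-sensing channel, and *Scn9a*, *Scn10a* and *Scn11a*, of sensory neurons outside the brain, did not pass the filter, and their arrays read 0.211 to 21.1.

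In the RefSeq gene table of mouse assembly GRCm38.p6, *Scn3a* lies next to *Scn2a*, and *Scn1a* next to *Scn9a* and that next to *Scn7a*, all on chromosome 2. *Scn10a* lies next to *Scn11a*, and *Scn2b* next to *Scn4b*, on chromosome 9. The neighbours *Scn3a* and *Scn2a* stood on opposite sides in set 3, at -0.15 and 0.10.

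**Figure D3:**
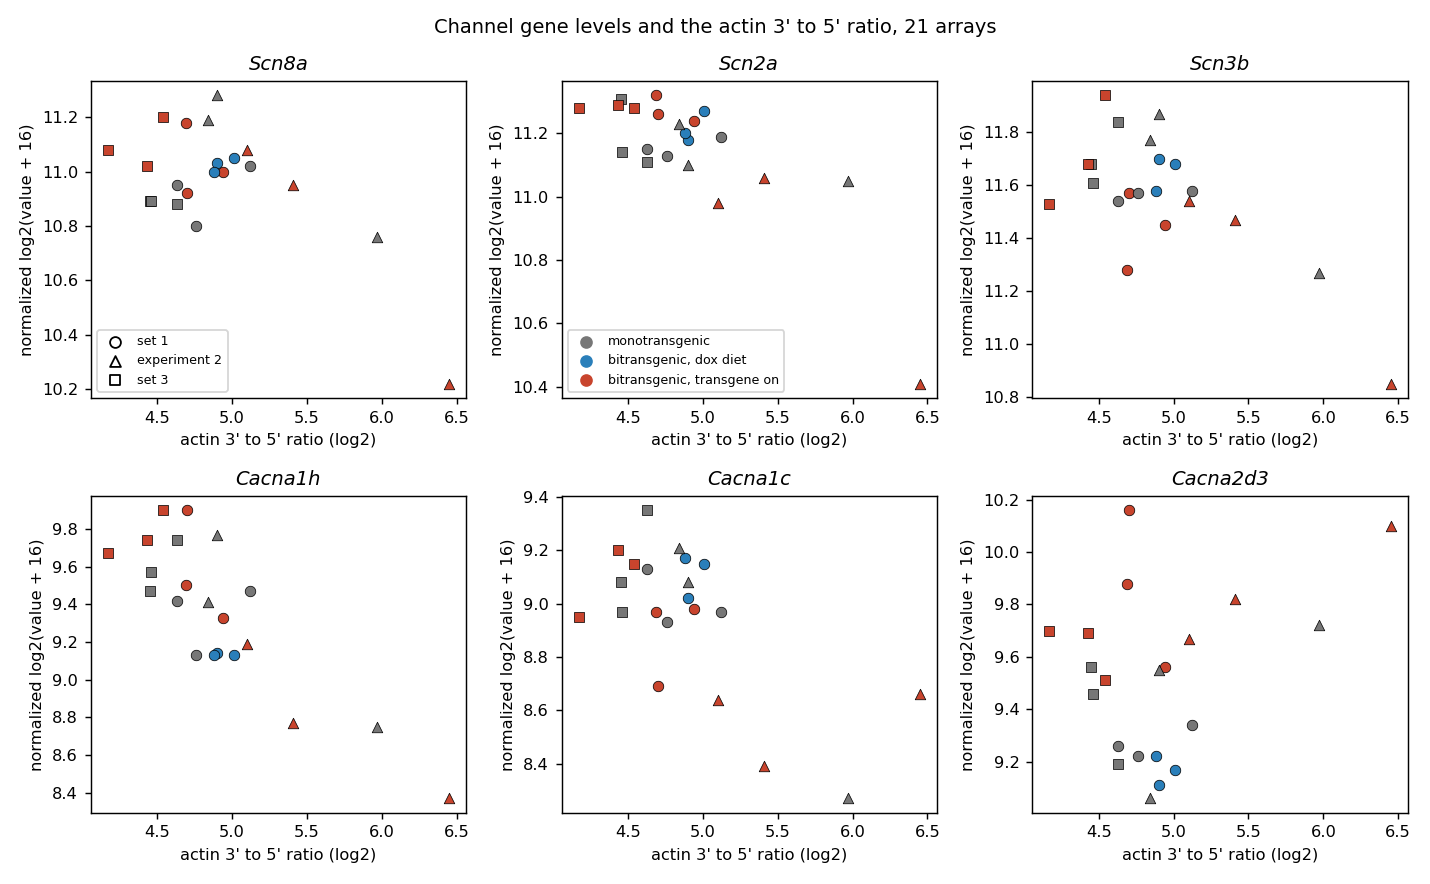
Normalized log2(value + 16) of 6 channel genes (vertical axes) against the log2 ratio of the actin 3' to 5' probe sets (horizontal axes) on the 21 arrays; shape gives the set, and grey, blue and red give monotransgenic, doxycycline diet and bitransgenic with the transgene on. The array at 6.45, a bitransgenic array of experiment 2, is the lowest for *Scn8a*, *Scn2a*, *Scn3b* and *Cacna1h* and among the highest for *Cacna2d3*.

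All 3 sodium channel beta genes were tested. *Scn4b*, for the beta subunit linked to resurgent sodium current, was on the higher side in each set, though dim. It read 24.6, 37.1 and 52.7 after removal against 22.6, 29.9 and 36.5 in monotransgenic mice, 33, 53.6 and 23.9 against 34.3, 33.7 and 23.1 in experiment 2, and 43.8, 39.3 and 34.9 against 18.9, 38.5 and 25 in set 3. The groups overlapped in all 3 sets. The differences were 0.27 ± 0.23, 0.39 ± 0.23 and 0.37 ± 0.23, and their mean was 0.34 ± 0.13 (limma adjusted p = 0.297, unadjusted exact permutation p = 0.0198 over 8000 labelings). The experiment 2 value was 0.20 ± 0.25 without the pair of highest actin ratio, and the set 1 value was 0.08 without removal array 3. Over the alternatives the mean was 0.18 to 0.50, and none passed.

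*Scn2b*, for a beta subunit bound to the pore by a disulfide bridge, had the lowest p of the channel genes in set 3. There it read 1608, 1531 and 1752 in bitransgenic and 1197, 1600 and 1206 in monotransgenic mice. A single monotransgenic array, at 1600, overlapped the bitransgenic range, and the difference was 0.31 ± 0.19 (limma adjusted p = 1). Set 1 after removal gave 0.14 ± 0.19 and experiment 2 gave 0.01 ± 0.19.

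*Scn3b*, for a beta subunit bound without such a bridge, read 3113, 2023 and 3007 in bitransgenic and 2682, 3838 and 3428 in monotransgenic mice of experiment 2, and differed by -0.35 ± 0.16 (limma adjusted p = 0.334). As for *Scn8a*, the lowest array of each group was the one of highest actin ratio. Without this pair the difference was -0.31 ± 0.11 (limma adjusted p = 0.122), and without bitransgenic array 2 alone it was -0.13, while its second probe set, far dimmer, stood at 0.32 ± 0.24 with all arrays. The removal arrays of set 1 read 3150, 2816 and 2502 and the diet arrays 3224, 3215 and 3017. The highest removal array passed the lowest diet array in intensity but not after normalization, and the difference was -0.22 ± 0.16. Over the 3 sets it stood at -0.16 ± 0.09 (limma adjusted p = 0.539).

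Among HCN genes *Hcn2* and *Hcn3* were found, each with 1 dim probe set, and both were on the higher side in all 3 sets. *Hcn2*, for a widely expressed HCN channel, read 32.6, 27.9 and 27.5 after removal, 27.8, 21.1 and 31.2 on the diet and 24.1, 4.13 and 35.2 in set 1 monotransgenic mice. Experiment 2 gave 29.1, 9.29 and 23.9 in bitransgenic and 22.9, 23.6 and 6 in monotransgenic mice, and set 3 gave 42.5, 22.4 and 38.7 against 23.8, 32.3 and 14.8. The lowest array of each set was a monotransgenic one, and the groups overlapped in every set. The differences were 0.45, 0.32 and 0.36, each ± 0.29, and their mean was 0.37 ± 0.17 (95% interval 0.03 to 0.72, limma adjusted p = 0.383, unadjusted exact permutation p = 0.0482). The set 1 value was 0.07 without monotransgenic array 2, the array at 4.13. The experiment 2 value was 0.69 ± 0.33 without the pair of highest actin ratio and 0.09 without monotransgenic array 3, the array at 6. With array weights the mean over the 3 sets was 0.50 ± 0.16 and passed (limma adjusted p = 0.0498), where 1374 of all 12499 genes were called. Over the alternatives of that mean the adjusted p ran to 0.581.

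*Hcn3*, for a slowly opening HCN channel, read 37.7, 40.7 and 39.4 after removal, 26, 31.7 and 14.8 on the diet and 22.8, 31.6 and 38 in set 1 monotransgenic mice. On the normalized scale the removal arrays were above both other groups of set 1, by 0.57 ± 0.22 against the diet (limma adjusted p = 0.821) and 0.31 ± 0.22 against monotransgenic mice (0.843). The diet group itself stood at -0.26 ± 0.22 against the monotransgenic group. In experiment 2 it read 53.3, 45.4 and 25 against 39.4, 34 and 28.6, and in set 3 43.2, 19 and 42.6 against 28, 35.6 and 29.1, and the groups overlapped in each. Experiment 2 gave 0.38 ± 0.22 with all arrays and 0.38 ± 0.27 without the pair of highest actin ratio. The mean over the 3 sets was 0.27 ± 0.13 (limma adjusted p = 0.405, unadjusted exact permutation p = 0.0385).

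**Figure D4:**
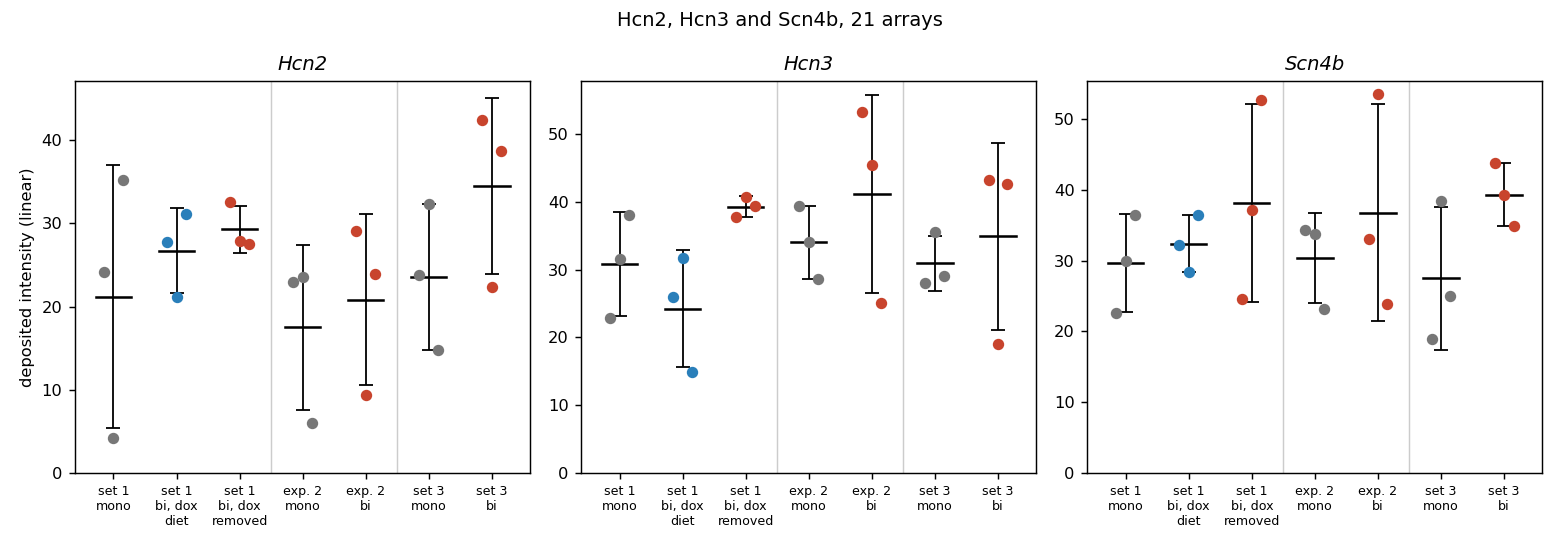
Deposited intensity (linear, from 0) of *Hcn2*, *Hcn3* and *Scn4b* on each of the 21 arrays in 7 groups, with points, bars and colours for arrays, mean and SD (n = 3), and group. All 3 genes are dim, between 4.13 and 53.6, and the ranges with the transgene on overlap those of monotransgenic mice in every set.

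**Figure D5:**
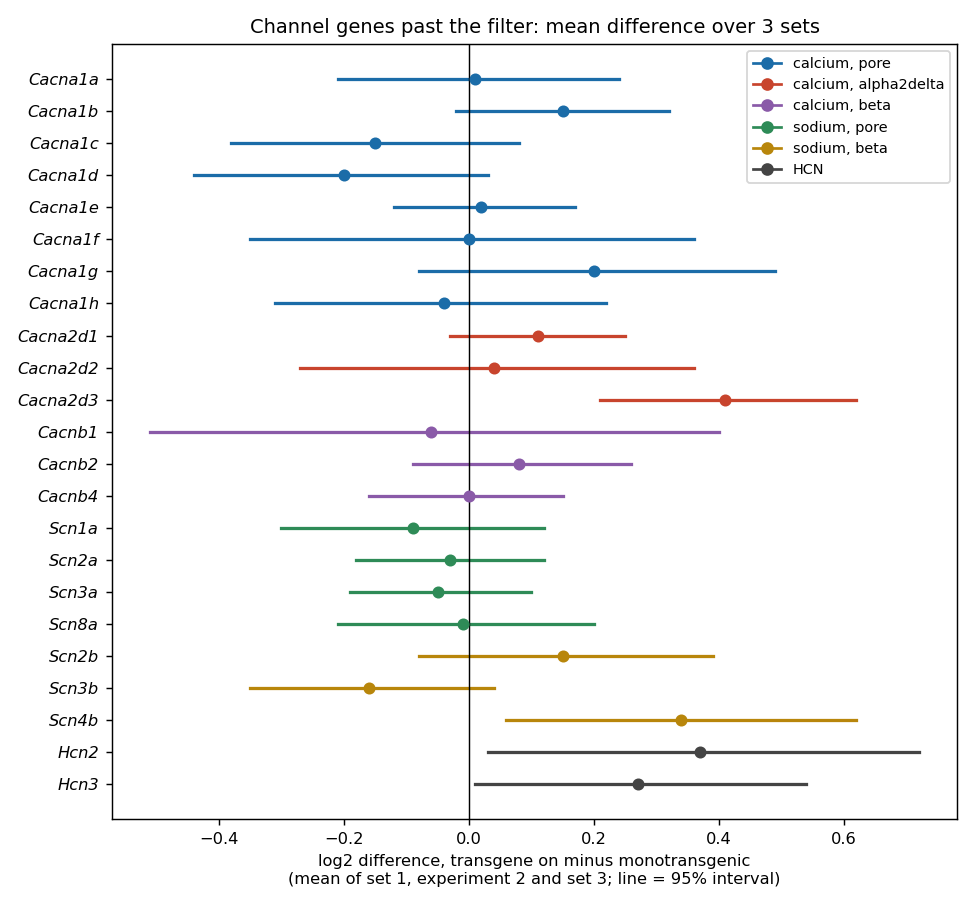
Difference of each of the 23 channel genes with the transgene on minus monotransgenic, as the mean of set 1, experiment 2 and set 3 (points, log2) with its 95% interval (lines), coloured by subunit. The intervals of *Cacna2d3*, *Scn4b*, *Hcn2* and *Hcn3* lie above 0 before adjustment, and all 23 lie between -0.51 and 0.72.

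Agreement between probe sets could be seen in 13 genes with more than 1 past the filter. The array values given above are those of the brightest, also for *Cacna1h* (2 past the filter) and *Scn8a* (4). Their probe sets all had the same sign in 8 of 13 after removal against monotransgenic mice, in 9 against the diet, in 9 for the diet against monotransgenic mice, in 6 in experiment 2, and in 5 in set 3 and over the 3 sets. No probe set of a channel gene was called (limma over all probe sets), and the lowest adjusted p was 0.0897. *Cacna2d3*, *Scn4b*, *Hcn2* and *Hcn3* have 1 probe set each and allow no such reading.

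The change of the transgene effect between sets was tested for all 23 genes. Experiment 2 against set 1 gave 0 calls beside 0% of all genes and 2 unadjusted p-values under 0.05 (*Cacna1h* and *Scn2a*) beside 7.91%. Set 3 against set 1 gave 0 calls beside 0% and 0 unadjusted beside 3.50%, and experiment 2 against set 3 gave 0 calls beside 0% and 3 unadjusted (*Cacna1h*, *Scn2a* and *Scn8a*) beside 8.09%. Experiment 2 stood lower than set 1 in 17 of the 23 genes, beside 5839 of all 12499 genes. The medians were -0.172 and 0.028. These comparisons share arrays. Experiment 2 holds the 2 arrays of highest actin ratio. Without them its difference moved from -0.31 to -0.14 for *Scn2a*, from -0.33 to -0.22 for *Scn8a* and from -0.53 to -0.60 for *Cacna1h*.

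Genes whose products bind or regulate these channels, or move calcium, were counted beside them. Of 46 listed, 32 were tested, and 0 were called in any comparison, with 4, 4, 1, 6, 3 and 9 at an unadjusted p under 0.05 after removal against monotransgenic mice, removal against diet, diet against monotransgenic mice, in experiment 2, in set 3 and over the 3 sets. These are 12.5%, 12.5%, 3.12%, 18.8%, 9.38% and 28.1% of the 32, beside 7.86%, 5.04%, 3.85%, 14.4%, 4.19% and 11.8% of all genes. *Cacng5*, of the family named for a calcium channel gamma subunit, stood at -0.94 ± 0.23 and -0.79 ± 0.23 in the first and second of these (limma adjusted p = 0.155 and 0.449). *Atp2b3*, a plasma membrane calcium pump, stood at -0.38 ± 0.10 and -0.32 ± 0.10 there (limma adjusted p = 0.177 and 0.478). *Fgf11*, of the factors that bind sodium channels, stood at 0.68 ± 0.24 in each (limma adjusted p = 0.39 and 0.698). In experiment 2 and set 3 *Cacng5* stood at -0.10 and 0.11, *Atp2b3* at -0.05 and 0.04, and *Fgf11* at -0.38 and 0.25. *Atp2a2*, the calcium pump of the endoplasmic reticulum, had the lowest p over the 3 sets, at 0.21 ± 0.05 (limma adjusted p = 0.0761). *Rimbp2*, which ties calcium channels to release sites, stood at -0.42 ± 0.12 over the 3 sets (limma adjusted p = 0.153) and -0.57 ± 0.22 in set 3. *Fgf14*, another sodium channel partner, stood at -0.77 ± 0.24 in set 3. It stood at -0.28 in experiment 2 and -0.05 after removal against monotransgenic mice.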

How the data were processed

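Arrays of dentate gyrus RNA were analysed from the deposited table, which holds linear intensity values by probe set and array. The deposited intensities were already scaled: with 2% trimmed from each end, every one of the 21 arrays has a mean of 150. No software for that step is named in the labels, and detection calls were not part of the table used. Gene names came from the platform annotation (34945 of 45101 probe sets with 1 symbol). The channel genes and gene lists were chosen with earlier results of these data known.

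Intensities were transformed as log2(value + 16) and quantile-normalized, the upper 60% of probe sets by mean (27022, limit 4.90) were kept, and the brightest of these stood for its gene. One limma fit (limma 3.58.1, R 4.3.3) held a coefficient per group, with 14 residual degrees of freedom and a variance trend. Tests were two-sided, adjusted by Benjamini-Hochberg over 12499 genes, with a threshold of 0.05. The number of arrays limits the precision. The fit was tested on simulated data. Exact permutation used normalized log2 values, with 20 labelings of 3 against 3. Its p-values are not adjusted for the number of genes or for the choice of the genes described.

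Array values are given for the 5 channel genes of lowest p in each of 6 comparisons and the 2 of lowest p per subunit over the 3 sets, and *Cacna1c* was added after its values were seen. Of 13 marker lists, the summed intensities that did not overlap between groups are reported. The lists for immature and inhibitory neurons, thalamus, choroid plexus, oligodendrocytes and astrocytes overlapped in every comparison. Alternatives changed the pseudocount (1 or 64), filter, scaling, probe set rule, array weights, variance trend, samples in the fit and threshold. Figures were drawn with matplotlib 3.10.9.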

Additional observations from a re-analysis of the deposited data

How the results depend on the processing

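No channel gene was called in the diet against monotransgenic comparison, in set 3 or in the 3 differences between sets under any setting run. Counts of called channel genes otherwise differed from 0 as follows. With array weights 1 was called after removal against monotransgenic mice and 1 against the diet (*Cacna2d3* in both), beside 254 and 68 of all 12499 genes. The same weights gave 3 in experiment 2 (*Cacna1c* and *Cacna1h* lower, *Cacna2d3* higher), beside 890 of all genes. Over the 3 sets they gave 3 (*Cacna1c* lower, *Cacna2d3* and *Hcn2* higher), beside 1374 of all genes. With the arrays of set 1 alone 1 was called in each of its removal comparisons. Beside it stood 330 (against monotransgenic mice) and 86 (against the diet) of 12507 genes. Without the 2 arrays of highest actin ratio 1 was called in experiment 2 and 1 over the 3 sets, beside 517 and 415 of 12505 genes. Over the 3 sets a threshold of 0.1 gave 1 as well, beside 128 of 12499 genes. The removal of experiment 2, chosen after seeing the data, also gave 1 there, beside 183 of 12468 genes. Leaving out each array in turn gave 0 to 2 calls in experiment 2 and 0 to 1 over the 3 sets. The 2 came without monotransgenic array 1 of experiment 2, beside 658 of 12496 genes. Over the 3 sets the calls came without that array (beside 217 of 12496 genes) and without monotransgenic array 2 of set 3 (beside 316 of 12517). The cause was not tested. No called difference changed sign. In set 3 the titles share 2 number prefixes between the groups, and with the prefix as a block 0 channel genes were called and *Cacna2d3* stood at 0.22 ± 0.18. No paired analysis was possible because of missing shared numbers in set 1 and experiment 2, where the groups compared have no sample number in common. With 3 arrays a group, the 95% interval of a within-set difference reached a median of 0.38 to 0.39 log2 units to either side before adjustment, and after adjustment differences as large as 0.70 (*Cacna2d3*) did not pass.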
